A study of Mus musculus with 6 samples.

Results

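Sox1, Sox3, Sox21, Pax3, Pax6, Pou3f1, Pou3f2, Six3 and Hesx1 are 9 transcription factor genes used as marks of neural and anterior ectoderm, out of 24288 gene symbols in the expression table. They were taken by name, with 1 row per symbol (the RefSeq entry with the highest total over the libraries), and each of the 9 had a row. RNA was sequenced from mouse day 2 epiblast-like cells (EpiLCs), which are embryonic stem cells (ESCs) moved from the naive state towards the state of the post-implantation epiblast. The comparison asks how these genes stand in EpiLCs that lack Smad2 and Smad3, the transcription factors through which Nodal and activin act.

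The wild-type (WT) group held 3 libraries from the CCE ESC line. The double knockout (DKO) group held 3 libraries from 1 clone, KT15.1F6, for which Smad3 was deleted by genome editing at its first exon in an ESC line already homozygous for a null allele of Smad2. Both groups had the 129/Sv//Ev background and received the same induction, which was 48 h on fibronectin in N2B27 medium with 12 ng/ml Fgf2, 20 ng/ml activin A and 1% KSR, a serum replacement. The 3 libraries of each group came, by their titles, from separate differentiations. Since the WT line and the clone differ in derivation as well as in genotype, effects of the knockout and differences between the lines cannot be told apart here. All results concern whole cultures, in which fewer expressing cells and less RNA per cell cannot be told apart.

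Recovered depth ran from 57644143 to 63046034 reads per library when 1 entry was taken per gene, and no library stood apart from its group. Values are normalized reads, that is, reads divided by 1 size factor per library, with errors as SD over n = 3 libraries. Smad3 was at 799, 846 and 873 normalized reads in WT and at 21.5, 30.5 and 18.7 in DKO. Smad2 was at 4438, 4513 and 4610 in WT and at 5176, 5052 and 4958 in DKO, so a count over the whole gene body did not show its mutation. The EpiLC genes on the marker list were present in both groups: Pou5f1, which encodes the pluripotency factor Oct4, was at 21846 ± 496 in WT and 20761 ± 344 in DKO.

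Neural identity is the course that epiblast cells take when Nodal, Wnt and bone morphogenetic protein (Bmp) signals are low. Sox1, Sox2 and Sox3 form the SoxB1 group of activators that keep neural progenitors undifferentiated, whereas Sox21 belongs to SoxB2, a group of repressors that act against them. Pou3f1 (Oct6) is a POU factor of the primed epiblast that also promotes neural commitment, and Pou3f2 (Brn2) is its relative in neural progenitors. Pax6 and Six3 pattern the eye and forebrain, Pax3 marks the dorsal neural tube and neural plate border, and Hesx1 is a repressor of the anterior neural plate and the pituitary rudiment.

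Promoter sequence could be read from RefSeq (GRCm38.p6, the assembly also called mm10) for 6 of the 9 genes, and the 250 bases before the annotated start are shown for a pair that fell in DKO, Pou3f2 and Hesx1, and a pair that rose, Pax6 and Sox21. Sequences run 5′ to 3′ on the strand of the gene, and capitals mark the CCAAT box (CCAAT, or ATTGG on the other strand). The Pou3f2 window lies at chr4:22488367-22488616 on the minus strand, the Hesx1 window at chr14:27000112-27000361 on the plus strand, the Pax6 window at chr2:105668646-105668895 on the plus strand before the more upstream of its 2 listed starts, and the Sox21 window at chr14:118237031-118237280 on the minus strand, where part of it is also an exon of the noncoding gene Gm4675.
Pou3f2: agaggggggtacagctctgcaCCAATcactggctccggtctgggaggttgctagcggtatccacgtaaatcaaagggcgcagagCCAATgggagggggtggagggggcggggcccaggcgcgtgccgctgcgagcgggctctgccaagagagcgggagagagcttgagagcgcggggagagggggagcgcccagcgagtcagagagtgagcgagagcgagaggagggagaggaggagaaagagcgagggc
Hesx1: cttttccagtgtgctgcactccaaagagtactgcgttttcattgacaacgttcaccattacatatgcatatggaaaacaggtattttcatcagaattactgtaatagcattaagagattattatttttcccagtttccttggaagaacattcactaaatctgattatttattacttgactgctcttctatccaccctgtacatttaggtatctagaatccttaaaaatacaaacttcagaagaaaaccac
Pax6: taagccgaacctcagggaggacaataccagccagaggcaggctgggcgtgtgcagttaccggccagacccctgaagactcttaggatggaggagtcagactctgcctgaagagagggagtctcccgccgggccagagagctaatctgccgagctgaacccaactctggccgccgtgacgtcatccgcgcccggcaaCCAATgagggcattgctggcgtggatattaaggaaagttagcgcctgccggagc
Sox21: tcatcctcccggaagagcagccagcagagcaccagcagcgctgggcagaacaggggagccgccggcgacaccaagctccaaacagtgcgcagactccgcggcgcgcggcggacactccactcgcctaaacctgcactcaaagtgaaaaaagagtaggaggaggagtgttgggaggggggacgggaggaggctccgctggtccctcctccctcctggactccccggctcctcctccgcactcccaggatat

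The windows of the genes that fell and rose did not separate by the letters searched. The CCAAT box, which was added to the search after the sequences were read, begins 229 and 166 bases before the start in Pou3f2 and 54 bases before it in Pax6, and is not in the Hesx1 and Sox21 windows. It is in 33.8% of the 32851 RefSeq mouse windows of this length. None of the 7 windows of the 6 genes holds, on either strand, the octamer of POU factors (ATGCAAAT, in 1.6% of all windows), a Sox motif (ACAATG, 10.7%), an Otx motif (GGATTA, 6.25%), a Smad3 and Smad4 motif (CAGACA, 17.1%), a GC-rich Smad1 and Smad5 motif (GGCGCC, 9.59%) or a TATA box (TATAAA, 12.4%). CpG content differed more, with 18 CpG dinucleotides in Pou3f2, 17 in Sox21, 15 in Pax6 and 2 in Hesx1, against a median of 6 over all windows.

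The 9 genes differed between DKO and WT EpiLCs in both directions. Sox1, Sox3, Pou3f1, Pou3f2, Pax3 and Hesx1 were lower in DKO EpiLCs, Pax6 and Sox21 were higher, and Six3 was at the limit of detection. The 3 WT and 3 DKO values did not overlap for any of the 8 genes tested, as was also so for 59.0% of the 17038 genes tested. Calls required a limma p, adjusted by Benjamini-Hochberg over 25361 entries fitted on log2(value + 1), under 0.05 and a difference of over 1.5-fold. By that rule 15.4% of all genes were called, with 8.03% lower and 7.34% higher, and of the 9 genes 6 were called lower and 2 higher. Pax3 and Hesx1 passed the expression filter through the WT libraries alone, a route that favours genes with lower values in DKO. Without these, 4 were lower and 2 higher among the 6 genes that passed in both groups.

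**Figure D1:**
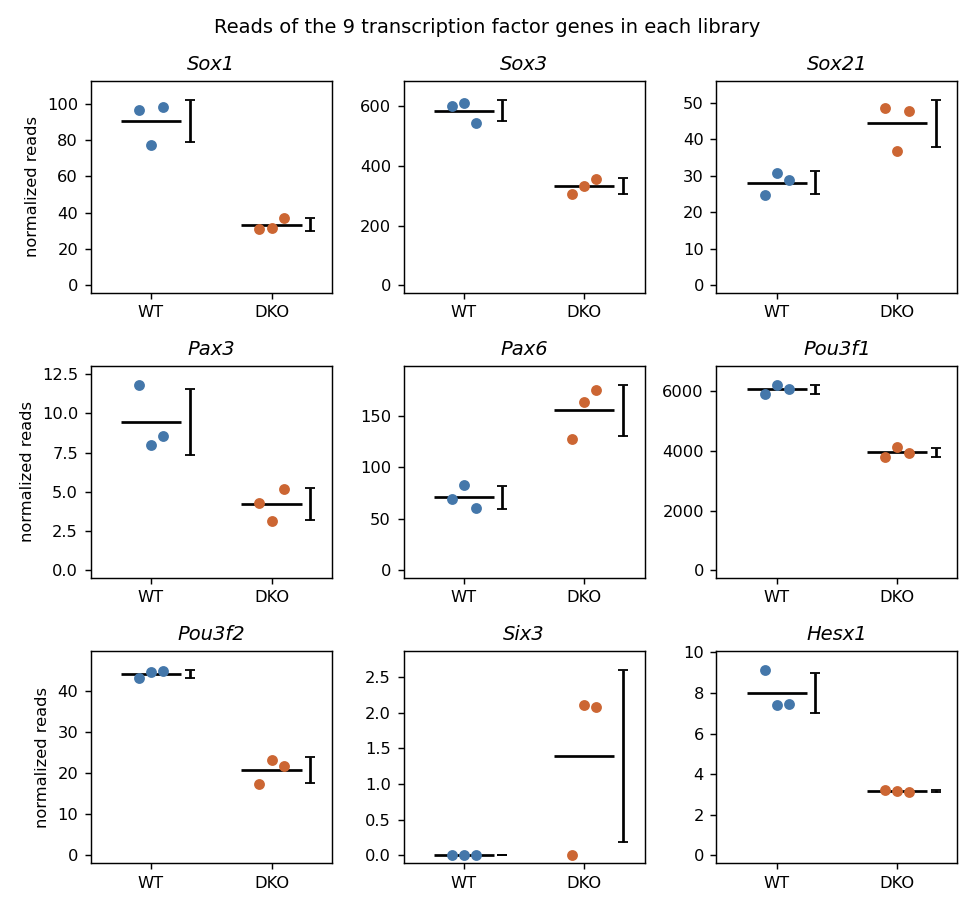
Normalized reads (y axes, a separate scale for each gene) of the 9 genes in the 3 WT and 3 DKO EpiLC libraries. Points are libraries, horizontal lines are means and bars are SD. The WT points lie above all DKO points for Sox1, Sox3, Pax3, Pou3f1, Pou3f2 and Hesx1 and below them for Sox21 and Pax6, and Six3 has reads in 2 DKO libraries only.

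Of the SoxB1 genes, Sox1 and Sox3 fell. Sox1 (NM_009233, chr8:12395295-12400126, plus strand, a single exon) is the earliest of the group to be restricted to neuroectoderm. It was at 96.7, 77.4 and 98.1 normalized reads in WT and at 31.2, 31.5 and 37.3 in DKO. The lowest WT library lay well above the highest DKO library. The mean was 2.72-fold lower in DKO (log2 fold change -1.41 ± 0.16 SE, limma adjusted p = 1.68e-08), the largest difference among the 8 genes tested. Sox1 lies within the noncoding gene Sox1ot on the same strand, which had no row here.

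Sox3 (NM_009237, chrX:60891366-60893430, minus strand, a single exon) is expressed through the epiblast before it marks neural progenitors. It was at 602, 611 and 544 normalized reads in WT and at 306, 333 and 358 in DKO, so that the highest DKO library stayed below the lowest WT library. The mean was 1.76-fold lower (log2 fold change -0.82 ± 0.07 SE, limma adjusted p = 2.53e-11). Sox1 and Sox3 kept their calls in each of 18 alternative settings and also when tested directly against a fold change of 1.5.

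Sox2, the SoxB1 gene that pluripotent cells share with neural progenitors, went the other way. It was at 2798 ± 46.0 normalized reads in the WT group and at 7741 ± 110 in the DKO group (log2 fold change 1.47 ± 0.03 SE, limma adjusted p = 1.30e-25). Per kb of gene body, which for single-exon genes such as Sox1, Sox2 and Sox3 is also per kb of exon, Sox2 was 4.81 ± 0.34 times as high as Sox3 in WT libraries and 23.5 ± 1.6 times in DKO libraries. The summed level of Sox1, Sox2 and Sox3 was 1662 ± 22.2 normalized reads per kb in WT and 3931 ± 63.8 in DKO. Sox2 made up 81.8% ± 0.9 of that sum in WT and 95.7% ± 0.3 in DKO. Sox2 lies inside the noncoding gene Sox2ot on the same strand, and Sox2ot was counted at 2933 ± 55.3 and 7982 ± 126 normalized reads, so most reads of the Sox2ot count can be reads of Sox2.

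Sox21 (NM_177753, chr14:118233232-118237030, minus strand, a single exon), the SoxB2 repressor, was higher in DKO. It was at 24.7, 30.7 and 28.8 normalized reads in WT and at 48.4, 36.8 and 47.7 in DKO. The groups were separated by the interval from 30.7 to 36.8, and the second DKO library was the one nearest to WT. The log2 fold change was 0.63 ± 0.19 SE (limma adjusted p = 0.00697), close to the threshold of 1.5-fold. Without WT replicate 1, DKO replicate 1 or DKO replicate 3 the log2 fold change was 0.55, 0.57 and 0.58, under the threshold. The other SoxB2 gene, Sox14, was at 10.4 ± 1.43 and 16.9 ± 4.30 normalized reads and was not called (log2 fold change 0.63 ± 0.30 SE, limma adjusted p = 0.0778). Sox21 overlaps Gm4675 on the opposite strand, and whether counting used strand was not stated.

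Pax6 (NM_001244198, chr2:105668900-105697364, plus strand, 13 exons) rose in DKO EpiLCs. It was at 68.8, 83.1 and 60.8 normalized reads in WT and at 127, 163 and 175 in DKO, each DKO library above every WT library. The mean was 155 ± 24.9 against 70.9 ± 11.3, or 1.12 ± 0.13 SE on the log2 scale (limma adjusted p = 5.14e-08), and the call held in each of 18 alternative settings. The table has 5 entries for Pax6, some of which have the same reads in every library. Reads shared by the longest and the shortest entry were 64.1 ± 9.26 in WT and 141 ± 23.7 in DKO. Reads found in the longest entry alone were 6.80 ± 3.26 and 13.7 ± 1.97, a difference in the same direction that rests on few reads. The antisense gene Pax6os1, which overlaps the 5′ end of Pax6, was at 5.48 ± 1.06 and 8.77 ± 2.58 normalized reads and was not called (limma adjusted p = 0.217). Whether counting used strand was not stated, so reads of Pax6 and Pax6os1 may not be told apart where they overlap.

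Pax3 (NM_001159520, chr1:78101267-78196838, minus strand, 9 exons) was the weaker of the Pax genes. It was at 11.8, 7.97 and 8.53 normalized reads in WT and at 4.31, 3.15 and 5.18 in DKO. These stand for 22, 14 and 16 reads in WT and 8, 6 and 10 in DKO over a gene body of 95.6 kb. Both mates of a pair appear to have been counted, since 70.5 to 73.9% of values from 1 to 20 reads were even in each library, so the number of molecules behind such values is smaller still. The mean was 2.24-fold lower (SE 0.40 on the log2 scale, limma adjusted p = 0.0347), and DESeq2 on the recovered reads did not call it. The call was also lost without WT replicate 1, WT replicate 3, DKO replicate 1 or DKO replicate 2.

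Pou3f1 (NM_011141, chr4:124656807-124660655, plus strand, a single exon) was by far the most abundant of the 9 genes and fell in DKO. It was at 5916, 6210 and 6067 normalized reads in WT and at 3799, 4119 and 3927 in DKO. The spread within each group was small beside the step between them. The mean was 1.54-fold lower (log2 fold change -0.62 ± 0.03 SE, 95% interval -0.68 to -0.56, limma adjusted p = 4.07e-16). The interval lies well away from 0 but reaches across the 1.5-fold threshold. Pou3f1 overlaps Gm2164 on the opposite strand at its 5′ end.

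Pou3f2 (NM_008899, chr4:22482780-22488366, minus strand, a single exon), whose promoter is printed above, fell more steeply from a much lower level. It was at 43.0, 44.4 and 44.8 normalized reads in WT and at 17.2, 23.1 and 21.8 in DKO. The WT libraries were nearly identical and each lay above every DKO library. The mean was 2.13-fold lower (log2 fold change -1.06 ± 0.20 SE, limma adjusted p = 6.59e-05). Per kb of gene body, Pou3f1 was 200 ± 3.3 times as high as Pou3f2 in WT libraries and 280 ± 34.7 times in DKO libraries. Of the other class III POU genes, Pou3f3 was at 12.4 ± 4.38 and 10.6 ± 3.80 normalized reads and was not called (limma adjusted p = 0.627), and Pou3f4, at 1.98 ± 1.52 and 1.21 ± 1.66, was too low to test.

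Six3 (NM_011381, chr17:85620834-85626191, plus strand, 2 exons) was hardly detected. It had 0 reads in each of the 3 WT libraries and in the first DKO library, and 4 reads in each of the other 2 DKO libraries, or 2.10 and 2.07 normalized reads. The DKO mean was 1.39 normalized reads. With 0 reads in WT no fold is given, and the gene did not pass the expression filter, so it was not tested. Its relative Six6 in the eye field was at 1.80 ± 1.34 and 0.696 ± 0.603 normalized reads and was not tested either. Six3 overlaps the antisense gene Gm28528 at its 5′ end, and whether counting used strand was not stated.

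Hesx1 (NM_010420, chr14:27000362-27002329, plus strand, 4 exons) was low and lower still in DKO. It was at 9.13, 7.40 and 7.47 normalized reads in WT and at 3.23, 3.15 and 3.11 in DKO, which stand for 17, 13 and 14 reads against 6 reads in every DKO library. The groups did not overlap, but the values rest on few reads. The log2 fold change was -1.11 ± 0.42 SE (limma adjusted p = 0.0283), and DESeq2 on the recovered reads did not call it. Leaving out any single library other than DKO replicate 1 also ended the call.

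Per kb of gene body the 9 genes covered a range of several orders of magnitude. In WT the order was Pou3f1 (1576 ± 38.2 normalized reads per kb), Sox3 (284 ± 17.8), Sox1 (18.8 ± 2.40), Pou3f2 (7.89 ± 0.17), Sox21 (7.39 ± 0.81), Hesx1 (4.06 ± 0.50), Pax6 (2.49 ± 0.40), Pax3 (0.0988 ± 0.0218) and Six3 at 0. Pou3f2 and Sox21 were the only neighbours in this order whose libraries overlapped. In DKO the order was Pou3f1 (1026 ± 41.8), Sox3 (161 ± 12.5), Sox21 (11.7 ± 1.72), Sox1 (6.90 ± 0.71), Pax6 (5.45 ± 0.88), Pou3f2 (3.71 ± 0.55), Hesx1 (1.61 ± 0.03), Six3 (0.260 ± 0.225) and Pax3 (0.0441 ± 0.0107). Sox21 thus stood above Sox1, and Pax6 above Pou3f2 and Hesx1, in each DKO library, where in WT these orders were reversed on this scale. Six3 and Pax3 were the only DKO neighbours that overlapped. Gene bodies include introns, so the genes with several exons sit low on this scale: per kb of exon, all reads of Pax6 would come to 27.3 in WT and 59.6 in DKO, and those of Pax3 to 3.07 and 1.37. On that exon scale Pax6 stood above Pou3f2 and Hesx1 in both groups (7.89 and 7.01 in WT), so that its change of place is seen per kb of gene body only.

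**Figure D2:**
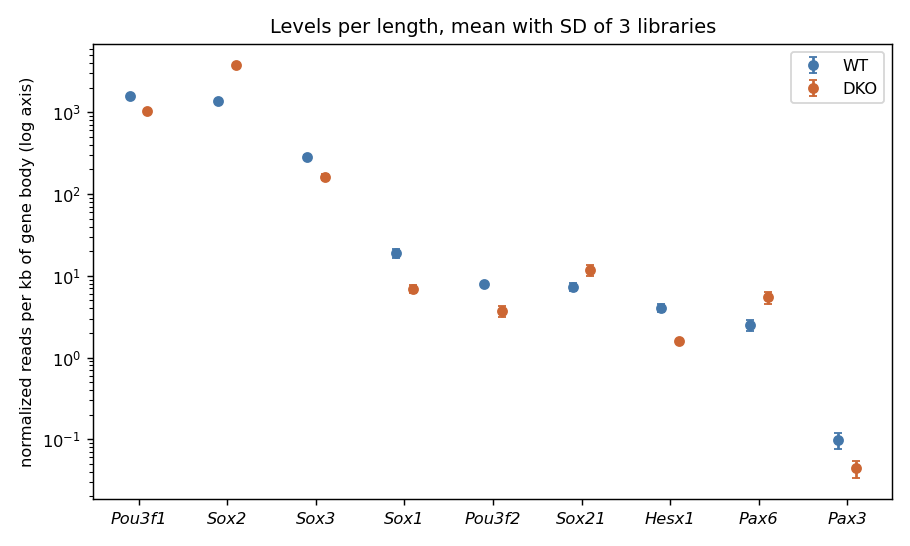
Levels in normalized reads per kb of gene body (y axis, log scale) of 8 of the 9 genes and of Sox2 (x axis) in WT and DKO EpiLCs, as means with SD over 3 libraries. Six3 is left out because it was at 0 in WT. Pou3f1 is the highest in WT at 1576, and Sox2, Sox21 and Pax6 are the genes with the DKO point above the WT point.

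The other genes of the same families, the remaining SoxB, Pax and class III POU genes and the relatives of Six3, were followed to see whether the families moved as wholes. Of 16 such genes 12 were tested, of which 3 were called lower and 2 higher, with a median log2 fold change of 0.09 against 0.00 over all genes. The lower genes include Pax8 (111 ± 14.6 to 72.8 ± 13.2, log2 fold change -0.61) and Pax5 (13.9 ± 2.79 to 6.65 ± 2.09, -0.99), which act in the thyroid, kidney and midbrain region. The higher genes were Sox2 and Pax7 (7.20 ± 4.21 to 16.2 ± 1.49, 1.19), the closest relative of Pax3. Six4, a relative of Six3, was at 7216 ± 55.4 and 7129 ± 89.2 normalized reads (log2 fold change -0.02, 95% interval -0.07 to 0.03). Pax2 was at 11.3 ± 3.54 and 13.0 ± 3.92 and was not called. Pax5 passed the filter through WT alone and Pax7 through DKO alone, and without WT replicate 2 Pax8, Pax5 and Pax7 were at -0.50, -0.84 and 0.81 and not called. Without DKO replicate 1 Pax8 (-0.45) and Pax5 (-0.74) were not called.

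**Figure D3:**
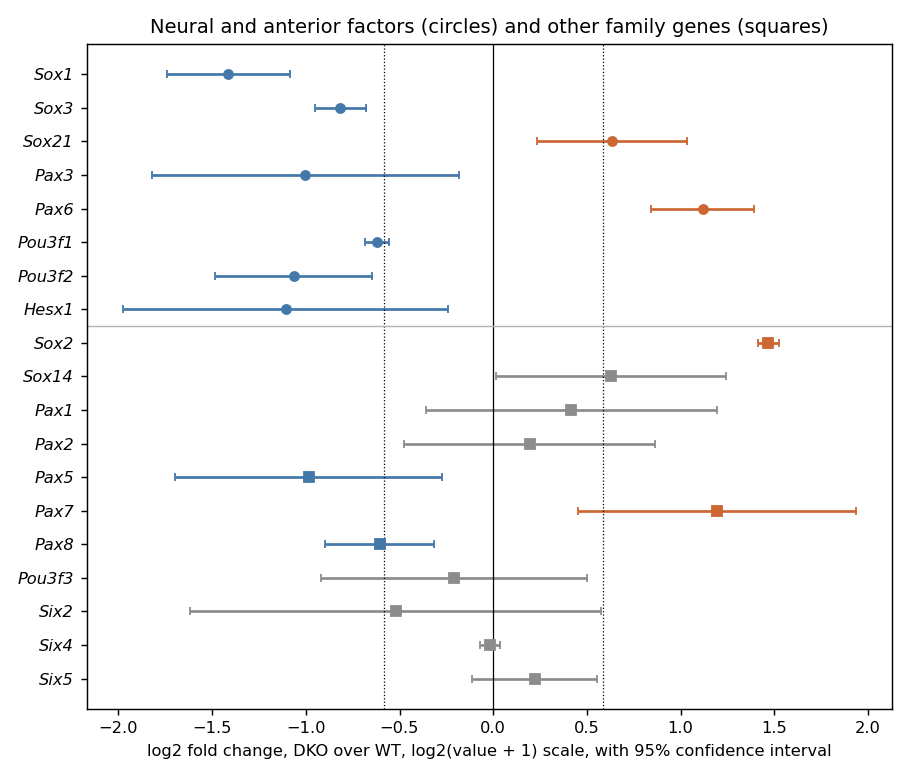
Log2 fold changes of DKO over WT on the log2(value + 1) scale (x axis) with 95% confidence intervals for the 8 tested neural and anterior factors (circles) and 11 of the 12 other tested genes of their families (squares), with 1 gene not shown. Blue and orange mark genes called lower and higher, grey marks genes not called, and dotted lines mark a fold change of 1.5. Sox1 lies farthest to the left at -1.41 and Sox2 farthest to the right at 1.47, and among the circles the intervals of Sox21, Pax3, Pou3f1 and Hesx1 cross a dotted line.

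A wider list of 36 neural plate, forebrain, midbrain and hindbrain genes showed no common direction. Of these 22 were tested, with 3 called lower, 3 called higher and a median log2 fold change of -0.11. The lower genes were Nkx6-2, a homeodomain factor of the ventral neural tube (63.3 ± 5.36 to 15.4 ± 5.41, log2 fold change -2.02), Cdh2, the N-cadherin of neural epithelium and mesoderm (821 ± 24.0 to 474 ± 6.96, -0.79), and Zic5 (697 ± 41.2 to 443 ± 19.5, -0.65). The entry counted for Nkx6-2 (NR_027857) is a RefSeq record of a noncoding transcript. The higher genes were Lhx5 (1.45 ± 1.62 to 6.85 ± 0.40, 1.92), a forebrain factor that passed the filter through DKO alone, Hoxb1 (18.2 ± 1.07 to 29.9 ± 3.48, 0.68) and Irx3 (241 ± 12.3 to 371 ± 37.6, 0.62). Without DKO replicate 2 Irx3 was at 0.55 and no longer called, and with a pseudocount of 10 Lhx5 and Hoxb1 were at 0.57 and 0.50 and not called.

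Several abundant genes of that list differed by less than 1.5-fold. Otx2, the factor of anterior epiblast and forebrain, was at 3596 ± 117 normalized reads in the WT group and at 4219 ± 53.8 in the DKO group (log2 fold change 0.23). Zic2, a zinc finger factor of the primed epiblast and neural plate, had a log2 fold change of -0.28, and Nes, the intermediate filament of neural progenitors, of -0.53. Without the fold threshold 13 of the 22 tested genes passed the adjusted p. The 14 genes too low to test include Rax of the eye field, Fezf1, Fezf2 and Vax1 of the forebrain, Hes5, the Notch target of neural progenitors, and Olig2.

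Surface ectoderm arises beside neural ectoderm where Bmp signals are high, and its genes moved largely one way. Of 21 genes 20 were tested, with 14 called higher and 1 lower, and a median log2 fold change of 1.70. This list holds Bmp targets and genes shared with trophoblast, and it was drawn up with results of these libraries known, so its direction is not independent evidence. Id1, an inhibitor of basic helix-loop-helix factors and a direct Bmp target, went from 48.5 ± 3.36 to 4494 ± 283 normalized reads (log2 fold change 6.51), and Id3 from 122 ± 9.36 to 2638 ± 151 (4.42). Gata3 (4.82) and Gata2 (3.28), which also act in trophoblast, were the other genes among the 4 with the largest rise. Tfap2c (2.50), Tfap2a (1.77) and the keratin gene Krt8 (1.64) were called higher, while Krt18, the partner of Krt8, was at 0.44 and not called. Foxi3, a factor of the placode region, was called lower just past the threshold (720 ± 17.5 to 478 ± 13.3, -0.59), a call lost without WT replicate 2 (-0.57), DKO replicate 1 (-0.58) or DKO replicate 3 (-0.58). Epcam, a general epithelial gene, had a log2 fold change of 0.03. In all, 5 of the 20 genes passed the filter through DKO alone.

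**Figure D4:**
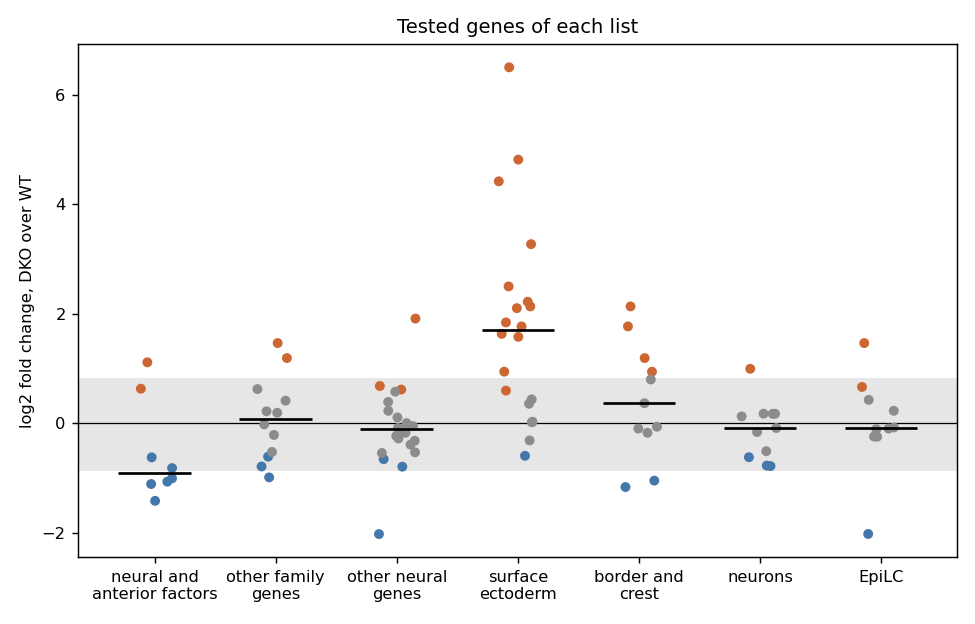
Log2 fold changes of DKO over WT (y axis) of the tested genes in each list (x axis), 1 point per gene, with horizontal lines at list medians. Blue and orange mark genes called lower and higher, grey marks genes not called, and the grey band spans the 5th to 95th percentile of all genes tested, from -0.86 to 0.80. The median is 1.70 for surface ectoderm genes and within 0.11 of 0 for the other family genes, the wider neural list, neurons and EpiLC genes.

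Genes of the neural plate border and neural crest, where Pax3 acts, were mixed. Of 13 genes 11 were tested, with 4 called higher and 2 lower, and a median log2 fold change of 0.37. The higher genes were Msx2 (2.14), Tfap2a (1.77), Pax7 (1.19) and Msx1 (0.95), of which all but Pax7 are also on the surface ectoderm list. Msx2 and Pax7 passed the filter through DKO alone. The lower genes were Snai2 (15.7 ± 0.54 to 6.68 ± 2.18, -1.16), which passed the filter through WT alone, and Ets1 (185 ± 3.70 to 89.2 ± 3.81, -1.04). Foxd3, which the epiblast and the crest share, was at 2258 ± 141 and 2915 ± 97.1 normalized reads and was not called (0.37).

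Markers of neurons and fibroblasts were examined because small numbers of other cells could supply reads of low genes. Neuron genes were read in both groups, with a summed level of 5760 to 5811 normalized reads in WT and 5235 to 5472 in DKO over 12 genes. Of these 11 were tested, with Elavl3 (-0.77), Rbfox3 (-0.78) and Syp (-0.62) called lower and Nefm (1.00) higher, while Tubb3, the neuronal tubulin, was at 766 ± 7.33 and 687 ± 31.4 and not called. Syp lost its call without WT replicate 3 (-0.55) or DKO replicate 1 (-0.51). The most abundant neuron genes were Stmn2 (2039 ± 25.6 to 2303 ± 65.6) and Nefl (2004 ± 49.8 to 1410 ± 41.6), neither of them called. Stmn2 rose and Nefl fell, so the neuron sum does not stand for its list either. Fibroblast genes summed to 3390 to 3445 in WT and 2941 to 3007 in DKO over 10 genes. Of these 8 were tested, with Dcn (-2.14) and Col1a2 (-1.07) called lower and none higher. The most abundant were Dcn (1330 ± 51.3 to 300 ± 16.9) and Fbln1 (1756 ± 66.1 to 2412 ± 53.0, 0.46, not called). Dcn and Fbln1 also moved in opposite directions, so the fall of the fibroblast sum does not stand for the list as a whole. The part of such cells in the values of Sox1, Pou3f2, Pax3 and Hesx1, which fell, was not tested. Of 10 EpiLC genes, Fgf5, the growth factor of the primed epiblast, was called lower (3235 ± 12.6 to 798 ± 23.0, -2.02) and Sox2 and Sall4 (0.67) higher.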

How the data were processed

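RNA was sequenced from 3 WT and 3 DKO EpiLC cultures as total RNA depleted of ribosomal RNA, in stranded paired-end libraries read over 75 cycles. Per the labels and the published methods, the authors filtered out ribosomal reads using Bowtie2, aligned to mm10 with STAR, removed duplicates with SAMtools and counted reads over RefSeq gene bodies. Versions and the use of strand were not given in the sources used here. The deposited values are a signal, namely reads divided by 1 size factor per library by the authors. The authors' deposited comparison table (DESeq2 fold changes, errors and p-values) was not used.

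Every value was a whole multiple of 1 read (100% within 0.1 of a read), so reads were recovered. Rows without a symbol (138 of 33812, with 0.517% of reads) were left out. Totals were 57644143 to 63046034 reads per library, and errors cover counting and the spread between differentiations of 1 line each. As the values are normalized, the main test was limma with a variance trend (version 3.58.1, run in R 4.3.3), applied to log2(value + 1). It covered entries passing filterByExpr of edgeR (version 4.0.16, minimum count 10), with Benjamini-Hochberg adjustment over all entries. Fold changes on this scale understate changes of low genes. Other settings, including edgeR and DESeq2 (version 1.42.0) on recovered reads, were alternatives. Gene positions came from GENCODE vM21 by RefSeq identifier. The 9 genes and the lists were chosen with earlier results of these data known. Named beside the 9 are Smad2, Smad3, up to 4 called genes per list and direction with the largest change, a fixed set of related genes, and genes overlapping these. Other genes that were named for their level or their lack of a call, among them Six4, Sox14, Foxd3, Epcam, Sall4, Nefm, Dcn and genes too low to test, were chosen after their values were seen. A few genes that these rules pick out are left out of the text.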

Additional observations from a re-analysis of the deposited data

How the results depend on the processing

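Of the 8 called genes, Sox1, Sox3, Pax6, Pou3f1 and Pou3f2 kept their calls in each of 18 alternatives to the tool, scaling, pseudocount, filter, entry, block or set of libraries that kept the same call rule, and no direction was reversed. A pseudocount of 10 left 5 called genes (without Sox21, Pax3 and Hesx1), and testing directly against 1.5-fold left 3 (Sox1, Sox3 and Pax6). Leaving out 1 library gave 5 to 7, with 5 without WT replicate 1. For the other family genes a pseudocount of 10 gave 3 called genes, a minimum mean of 50 reads 3 of 5 tested, the test against 1.5-fold 2 and leaving out 1 library 2 to 6, with 2 without WT replicate 2 and 3 without DKO replicate 1. The wider neural list had 13 called genes without the fold threshold and 2 with the test against 1.5-fold, and the border and crest list had 3 of 6 tested at a minimum mean of 50 reads. Over all entries 3904 were called, 13977 without the fold threshold and 1735 with the test against 1.5-fold. A larger pseudocount shrinks the fold changes of low genes by construction, a changed fold rule moves the threshold itself, and a minimum mean reduces the genes tested. For single libraries the cause was not tested. Same-numbered WT and DKO libraries did not deviate together (correlations of -0.0079, -0.025 and 0.0048). This cannot show whether they were handled as pairs, which the labels do not state. A fit with the replicate number as a block called 8 of the neural and anterior factors and 3913 entries. Halving the reads because both mates appear counted, an alternative chosen after seeing the data, left Pax3 and Hesx1 untested and called the other 6. Depth limits Six3, Pax3 and Hesx1, where a few reads decide the values.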

Other observations

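Six3os1, a noncoding gene beside Six3, was examined after its values were seen. It had 6, 4 and 4 reads in the WT libraries and 8, 16 and 16 in the DKO libraries, or 2.54 ± 0.59 and 7.0 ± 2.34 normalized reads. It was too low to test. The 2 DKO libraries with reads of Six3 were those with 16 reads of Six3os1. Elp4, the gene next to Pax6 that carries distant Pax6 enhancers in its introns, was at 1193 ± 10.3 normalized reads in the WT group and at 1382 ± 63.1 in the DKO group (log2 fold change 0.21 ± 0.04 SE, limma adjusted p = 6.97e-05), which is under the 1.5-fold threshold.

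The 9 genes together took 6772 to 7072 normalized reads in WT libraries and 4337 to 4715 in DKO libraries. Pou3f1 made up 87.9% ± 0.5 of these reads in WT and 86.9% ± 1.0 in DKO, so a summed level of the 9 genes mostly follows Pou3f1 and does not show the rise of Pax6 and Sox21.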
